A study of Arabidopsis thaliana with 9 samples.

Results

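The genes described here are those for which the arrays of dog1-1 and of NILDOG1 dry seeds all lay on the same side of Ler. The rule orders arrays and does not ask that either line pass a test against Ler on its own. A probe set was kept where all 3 dog1-1 arrays and all 3 NILDOG1 arrays lay above, or all lay below, all 3 Ler arrays. This held for 928 of 22746 probe sets (4.08%), 427 above Ler (1.88%) and 501 below (2.2%). Because the measured values chose these genes, their difference from Ler is a description, and so is the count of members whose lines differ, since the rule read the same arrays. The difference between dog1-1 and NILDOG1 was itself no criterion of the choice.

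Arabidopsis thaliana seeds were freshly harvested, dry and at the end of maturation, and their RNA was hybridised to 9 Affymetrix arrays, 3 for each genotype. Each array held a replicate made from a bulk of 8 plants, grown in randomised complete blocks. All 3 genotypes share the Landsberg erecta background: Ler is the wild type with DOG1 labelled low, dog1-1 is the mutant with DOG1 labelled absent, and NILDOG1, a near isogenic line, carries the Cvi allele with DOG1 labelled strong. Each genotype is a single line, so a change of the DOG1 allele and any other sequence that a line carries cannot be told apart, and the labels do not say whether dog1-1 differs from Ler at other loci. DOG1 (AT5G45830, chromosome 5) had 0 probe sets under its name, so its level was not analysed here, which leaves the labelled DOG1 levels without a check.

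DOG1 (DELAY OF GERMINATION 1) is a seed-expressed regulator of primary dormancy, the state in which a fresh, viable seed does not germinate under favourable conditions. It was found as a natural variation locus: seeds of the Cvi accession are deeply dormant, those of Ler much less so, and loss of DOG1 removes dormancy. A near isogenic line is made by repeated backcrossing and keeps a stretch of donor chromosome around the selected locus. The labels thus place dog1-1 and NILDOG1 on opposite sides of Ler in DOG1 expression, while the genes kept here lay on 1 side of Ler in both.

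Signals are given on the log2 scale as mean ± SD over 3 arrays (n = 3). The joint difference is the mean of dog1-1 and NILDOG1, each weighted equally, minus Ler, also in log2. A call means an adjusted p under 0.05 in limma over all probe sets. The joint difference was called for 1136 probe sets (4.99%), 760 higher than Ler (3.34%) and 376 lower (1.65%), but 785 of these did not meet the array rule. Without Ler replicate 3 the joint calls numbered 700. Both the array rule and the call held for 351 (1.54%), of which 218 were higher and 133 lower than Ler and 88 differed at least 2-fold. At the edge of the array rule, BGLU16 was kept with a gap of 0.0003 between its nearest arrays, and AT3G58390 was left out because its nearest arrays tied, with a gap of 0. Of the 351, 179 belonged to 1 locus each (178 loci, 98 higher and 80 lower), 10 were listed with several genes and 162 had no gene in the tables used here. Most loci carry only a locus number there, and no role is given for those.

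Among probe sets with a gene, AT5G43450 had the largest rise of both lines; it lies on chromosome 5 120 measured loci before DOG1. Its signal was 3.11, 2.96 and 2.77 on the Ler arrays, 8.20, 8.09 and 8.05 on the dog1-1 arrays and 7.91, 8.20 and 8.20 on the NILDOG1 arrays. The 6 arrays of both lines lay together, far above Ler. The joint difference was 5.16 ± 0.10 (SE), 35.7-fold, while dog1-1 and NILDOG1 differed by 0.01 (95% interval -0.24 to 0.27, adjusted p = 0.969 in limma). The next gene in order, AT5G43460, also rose, from 7.98 in Ler to 9.15 in dog1-1 and 8.98 in NILDOG1.

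LUL1 (AT5G03200), which encodes a RING-type ubiquitin ligase, an enzyme that marks proteins with ubiquitin, lies near the start of chromosome 5. Its signal was 3.08, 3.28 and 2.70 in Ler, 6.72, 6.66 and 6.57 in dog1-1 and 7.34, 6.98 and 7.27 in NILDOG1. The lowest array of either line, 6.57, was far above the highest Ler array. The joint rise was 15.0-fold, and NILDOG1 lay above dog1-1 by a further 0.55 (limma adjusted p = 0.0275). AT5G03370, in the same stretch, rose from 4.58 ± 0.09 in Ler to 6.27 ± 0.09 in dog1-1 and 6.53 ± 0.23 in NILDOG1. Its lines differed by -0.26 (interval -0.52 to 0.00), which did not pass the test.

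CP1 (AT4G36880), a cysteine proteinase, a class of enzymes that degrade protein, was the largest rise off chromosome 5. It measured 4.96, 5.01 and 4.67 in Ler, 7.52, 8.23 and 7.97 in dog1-1 and 6.75, 7.35 and 6.39 in NILDOG1. The 3 groups did not overlap, with NILDOG1 between Ler and dog1-1. The joint rise was 5.61-fold, and dog1-1 exceeded NILDOG1 by 1.07 ± 0.23 (SE, adjusted p = 0.00735). AT1G42705 had the same order, with 3.97 ± 0.39 in Ler, 5.57 ± 0.13 in NILDOG1 and 6.91 ± 0.22 in dog1-1.

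AT5G45540, 15 measured loci before DOG1, was within the range of the TrpnX negative controls (1.82 to 2.56) in Ler and gave signal in both lines. The arrays read 2.45, 2.51 and 1.93 in Ler, 3.35, 3.35 and 3.50 in dog1-1 and 6.36, 5.43 and 6.05 in NILDOG1. Here NILDOG1 was the farther line by 2.55 (adjusted p = 6.96e-06), the largest difference in that direction among the genes named. The other rises among the 12 largest were AT5G43190, AT5G43150, AT5G48340, AT5G20950, AT3G16530 and AT5G42830, with joint differences of 1.37 to 2.12. Of these, AT5G43150 was higher in dog1-1 than in NILDOG1 by 1.11 and AT5G42830 was higher in NILDOG1 by 0.66, both past the test.

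Among probe sets with a gene, the largest fall was that of AT5G38780, 349 measured loci before DOG1. Its signal was 8.77, 9.28 and 9.31 in Ler, 6.06, 6.01 and 6.04 in dog1-1 and 7.17, 7.08 and 7.08 in NILDOG1. The groups were separate and dog1-1 was the lowest, 1.07 below NILDOG1 (adjusted p = 0.000149). The joint fall was 5.84-fold. AT5G48350 fell almost to the level of the negative controls, from 4.63, 5.05 and 4.66 in Ler to 2.90, 2.56 and 2.47 in dog1-1 and 2.80, 2.76 and 2.47 in NILDOG1. Both lines overlapped each other there and differed by -0.03 (interval -0.36 to 0.29). Its neighbour AT5G48340 was among the rises, at 6.05 ± 0.16 in Ler, 7.50 ± 0.06 in dog1-1 and 7.70 ± 0.07 in NILDOG1.

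AT4G18975 was the largest fall off chromosome 5, from 7.22, 7.65 and 7.45 in Ler to 5.86, 5.72 and 5.74 in dog1-1 and 6.09, 5.86 and 6.0 in NILDOG1. Every array of both lines was at least 1.13 below the lowest Ler array. The lines differed by -0.21 (interval -0.47 to 0.05), not past the test. AT5G46040, 13 measured loci after DOG1, fell from 4.03 ± 0.15 in Ler to background in both lines (2.52 ± 0.17 and 2.51 ± 0.23), so the size of its fall is a lower limit. AT5G47400 was read by more than 1 probe set; the brighter one fell by 1.15 on the log2 scale.

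**Figure D1:**
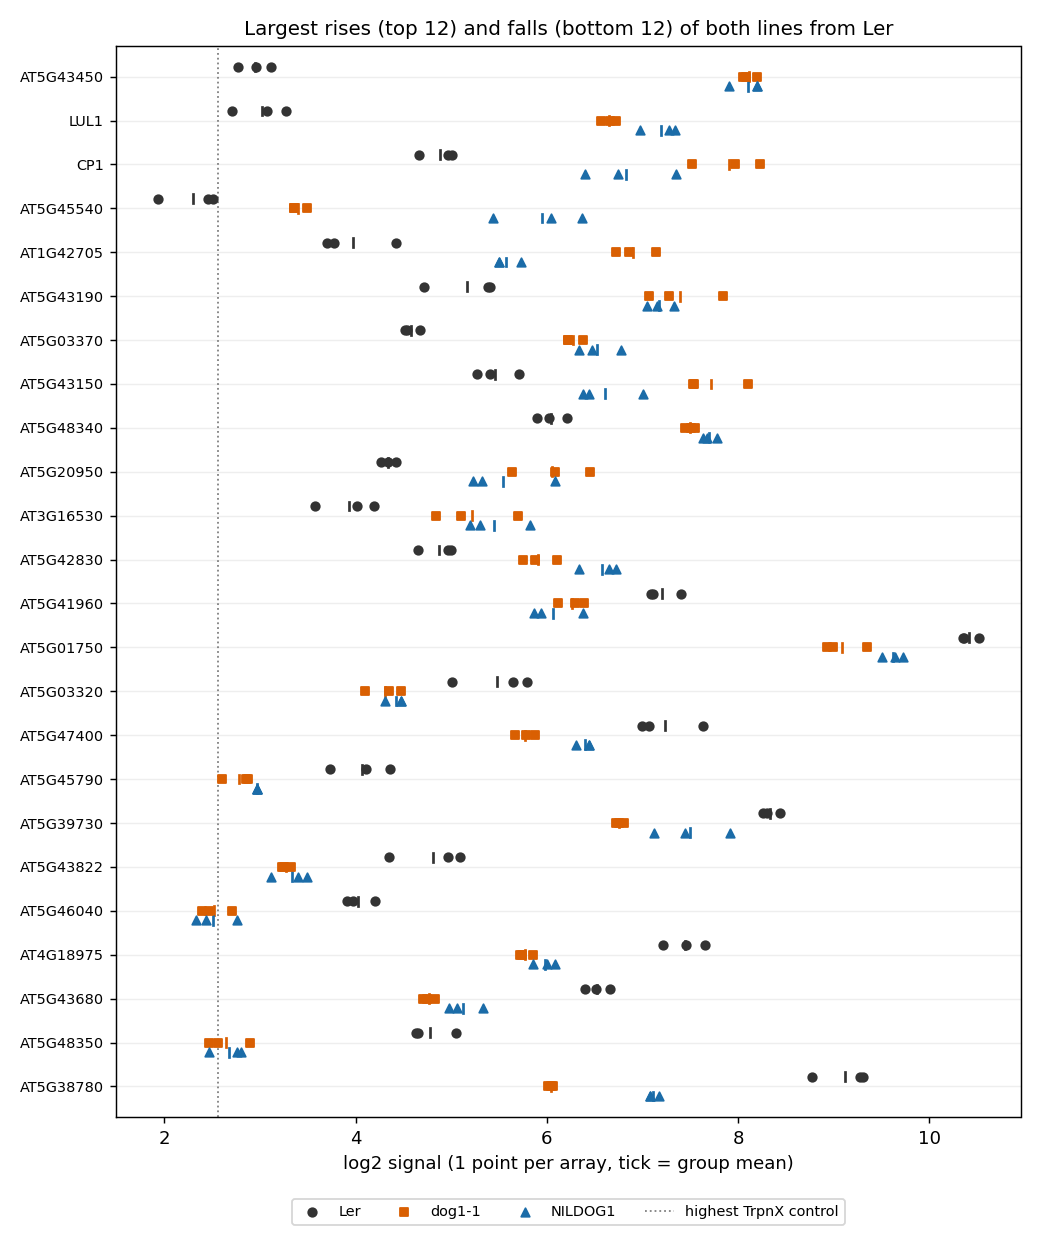
The log2 signal (horizontal axis) of the 12 largest rises (top) and 12 largest falls (bottom) on each array, 1 point per array, with a tick at each group mean and a dotted line at the highest TrpnX control (2.56). In every gene both lines lie on 1 side of Ler, as the rule required; for AT5G43450 the 2 lines coincide at 8.11 and 8.10, while for AT5G45540 they are 2.55 apart.

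The positions of these loci were uneven. Chromosome 5 held 107 of the 178 loci, 3.59% of the 2982 measured on it. Chromosomes 1, 2, 3 and 4 held 18, 16, 18 and 16, between 0.528% and 0.827% of those measured. In the window from AT5G40000 to AT5G52000 around DOG1, 58 of 618 measured loci were called on 1 side of Ler (9.39%), 31 higher and 27 lower. At the start of the chromosome, from AT5G01000 to AT5G05000, 24 of 212 were (11.3%), 12 in each direction. Outside both windows 96 of 12456 were (0.771%), 55 higher and 41 lower; without NILDOG1 replicate 3 this count was 153. Both windows were drawn with earlier results of these arrays known, so these shares describe the arrays and carry no test.

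Within chromosome 5 the loci formed 2 dense stretches. Between AT5G05000 and AT5G37000 only 5 of 1225 measured loci were called (0.408%), and after AT5G52000 another 5 of 773 (0.647%). By contrast the interval just before the DOG1 window, from AT5G37000 to AT5G40000, held 15 of 154 (9.74%), 5 higher and 10 lower, so the dense stretch started before the window did. That interval was set after its values were seen. Among 277 segments of 1000 locus numbers with at least 10 measured loci, 15 held 3 or more called loci and 14 of these were on chromosome 5. The densest began at AT5G43000, with 12 of 45 loci (26.7%), followed by those at AT5G03000 (19.2%), AT5G45000 (18.8%) and AT5G39000 (17.1%). The end of the DOG1 window was sparse. Its segments from AT5G49000, AT5G50000 and AT5G51000 held 0 of 49, 0 of 44 and 1 of 60 called loci. Off chromosome 5, 157 of 214 segments held none. Of the rest, only the segment starting at AT3G53000 reached 3 called loci, 3 of 48. These were CHX20, AT3G53960 and AT3G53670, the first 2 lower and the third higher than Ler.

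**Figure D2:**
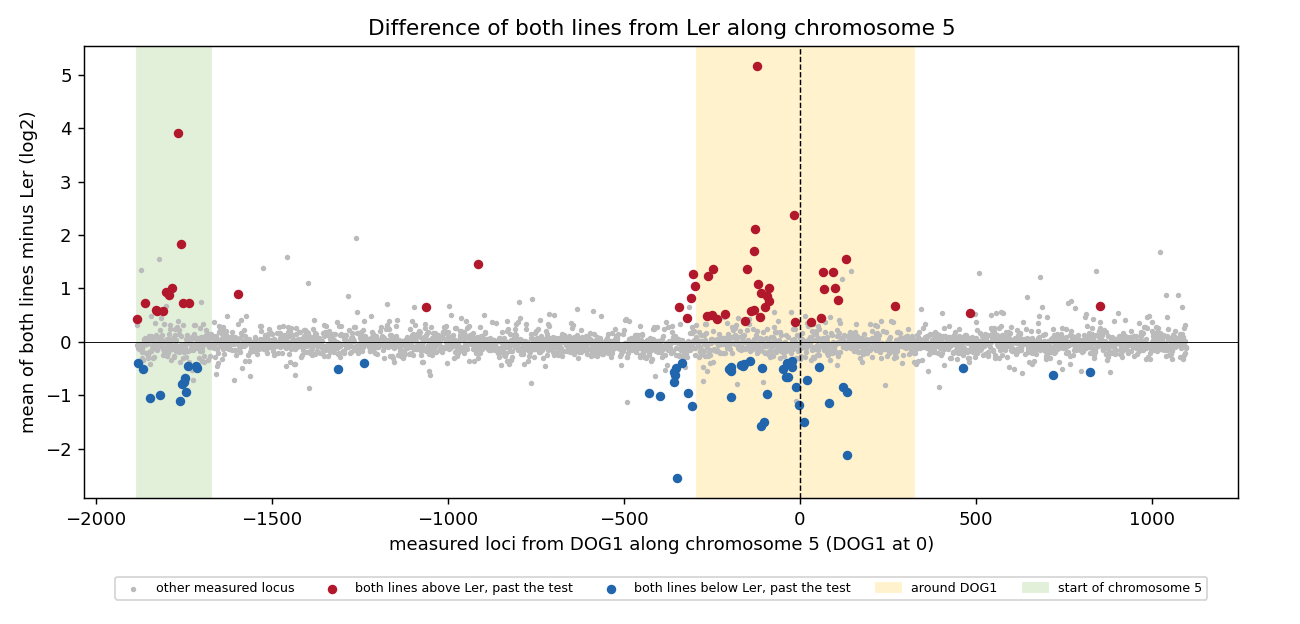
Joint difference from Ler (vertical axis, log2) of each locus measured on chromosome 5, ordered by the number of measured loci from DOG1 (horizontal axis, DOG1 at 0). Red and blue points are loci with both lines above or below Ler that passed the test, grey points the others. The coloured points crowd the shaded start of the chromosome (24) and the shaded window around DOG1 with the interval before it (58 and 15). They are sparse at the end of that window.

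**Figure D3:**
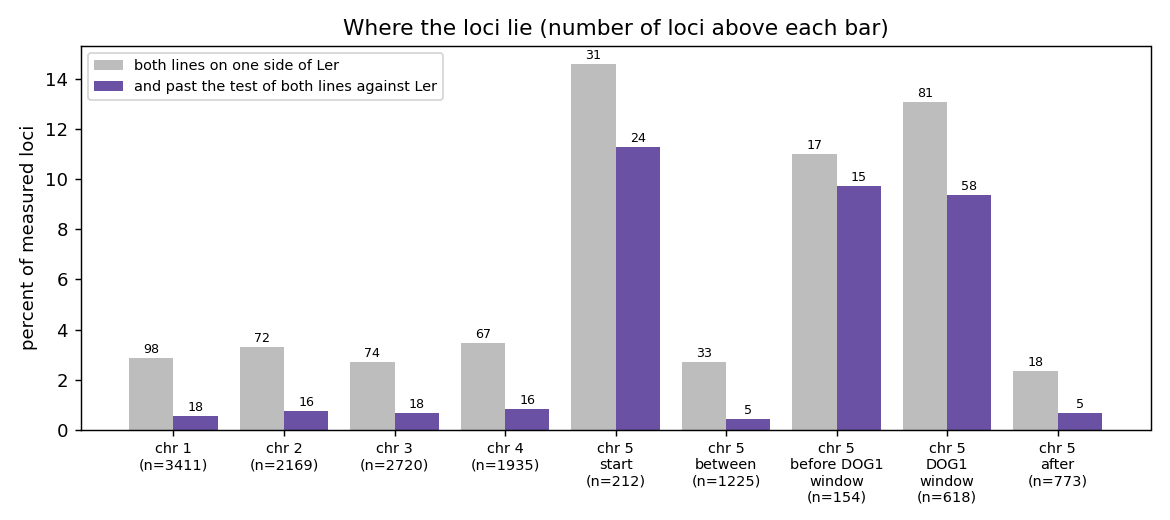
Percent of the loci measured in each chromosome or segment (n under each pair of bars) for which both lines lay on 1 side of Ler (grey) and for which the joint difference also passed the test (purple), with the number of loci on each bar. The purple bars reach 11.3%, 9.74% and 9.39% in 3 segments of chromosome 5 and stay under 0.83% in the other 6.

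The called loci nearest to DOG1 included rises and falls; measured loci between them were not called. AT5G45790, the first measured locus before it, fell from 3.73, 4.36 and 4.11 in Ler to 2.60, 2.88 and 2.85 in dog1-1 and 2.97 on each NILDOG1 array. Every array of both lines was below the lowest Ler array, and the lines differed by -0.19 (interval -0.50 to 0.12). Further out, AT5G45590 (11 loci before) fell by 0.85, MOB1-like (14 before), named for a family of kinase co-activators, rose by 0.36, and AT5G45540 (15 before) rose as above. CLPP4 (22 before), a subunit of the plastid Clp protease, went from 7.84 ± 0.10 in Ler to 7.44 ± 0.07 in dog1-1 and 7.30 ± 0.14 in NILDOG1. AT5G45410 (21 before) fell by 0.36. On the other side AT5G46040 (13 after) and AT5G46160 (21 after) fell, PRP39-2 (33 after), related to a splicing factor, rose by 0.37, AT5G46920 (56 after) fell by 0.47, and AT5G47050 (61 after) rose by 0.44. The calls of MOB1-like, PRP39-2, AT5G47050, AT5G45410, AT5G46920 and CLPP4 were each lost when at least 1 single array was left out.

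Called loci next to each other in the order of measured loci occurred in 11 runs of 23 loci, all on chromosome 5. In 9 runs the members shared a direction, and the longest was AT5G41950, AT5G41960 and AT5G41970, which fell by 0.47, 1.04 and 0.55. The 2 mixed runs were AT5G43670 with AT5G43680 and AT5G48340 with AT5G48350. AT5G43670 rose by 0.91 while AT5G43680 fell from 6.53 ± 0.13 in Ler to 4.76 ± 0.06 in dog1-1 and 5.13 ± 0.19 in NILDOG1. Runs and their members were picked with their values in view.

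Whether the 2 lines also differed from each other was tested in the same fit. Over all probe sets dog1-1 and NILDOG1 differed for 2835 (12.5%). Among the 351 kept and called, they differed for 113 (32.2%) and did not pass for 238. In 99 of the 113 dog1-1 was the line farther from Ler and in 14 it was NILDOG1. On its own dog1-1 passed against Ler for 328 of the 351 and NILDOG1 for 110; these share the Ler arrays. Both passed for 98.

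By position, around DOG1 the lines differed for 12 of the 58 loci (20.7%, against 10% of all loci measured there), with dog1-1 farther from Ler in 7 and NILDOG1 in 5. At the start of chromosome 5 they differed for 9 of 24 (37.5%, against 18.4%), dog1-1 farther in 5 and NILDOG1 in 4. Elsewhere they differed for 38 of 96 (39.6%, against 10.5%), and in all 38 dog1-1 was the farther line. The 96 include the 15 loci between AT5G37000 and AT5G40000, for 5 of which the lines differed. Of these 96 loci, dog1-1 on its own passed against Ler for 94 and NILDOG1 for 17. The median size of the difference between lines was 0.18 around DOG1, 0.24 at the start of the chromosome and 0.34 elsewhere. No test compared these shares between regions. Over all probe sets dog1-1 also stood apart. On the first principal component, the axis of largest variation (58.6%), its arrays lay at 35.6 to 44.7. The Ler arrays lay at -20.8 to -19.9 and those of NILDOG1 at -23.1 to -16.7. Of the 98 probe sets that passed in each line alone, those naming a locus gave 29 loci around DOG1, 12 at the start of chromosome 5 and 16 elsewhere. Of these 16, 7 lie between AT5G37000 and AT5G40000 and 7 on chromosomes 1 to 4: AT1G33590, AT1G42705, AT3G16530, AT4G18975, AT4G20480, CML42 and CP1. The joint call of AT1G33590 was lost without Ler replicate 2 or 3.

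**Figure D4:**
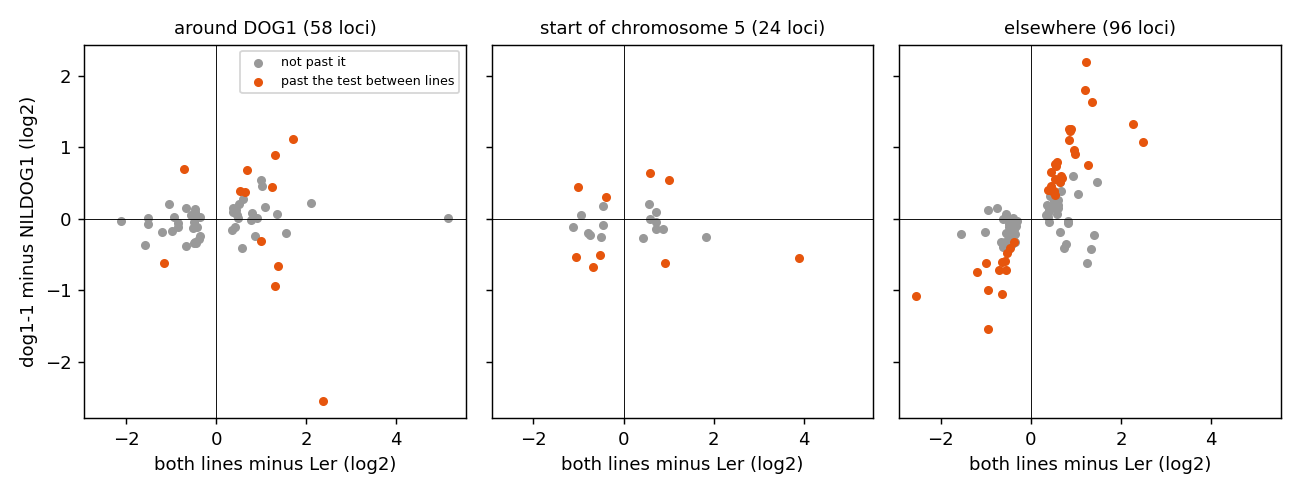
Difference between the lines (dog1-1 minus NILDOG1, vertical axis, log2) against their joint difference from Ler (horizontal axis, log2) for the 178 loci, split by region. Orange points passed the test between lines (12, 9 and 38 loci); elsewhere all orange points have the sign of the joint difference, so dog1-1 is the farther line, while around DOG1 both orders occur.

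COR47 and IQD22 showed the widest gaps between the lines among the loci elsewhere. COR47 (AT1G20440), a dehydrin of the late embryogenesis abundant proteins, which protect cells during drying and cold, measured 3.29, 3.19 and 3.39 in Ler, 5.56, 5.33 and 5.96 in dog1-1 and 3.43, 3.43 and 3.41 in NILDOG1. NILDOG1 lay only just above the highest Ler array, and dog1-1 exceeded it by 2.2 (adjusted p = 7.37e-07). IQD22, a member of a family of calmodulin-binding proteins, read 4.89, 4.83 and 4.75 in Ler, 6.88, 7.02 and 6.90 in dog1-1 and 5.33, 5.16 and 4.92 in NILDOG1. Again dog1-1 stood apart, by 1.80 from NILDOG1. AT2G39920 (difference 1.63) and scpl26 (1.26), a serine carboxypeptidase-like gene, had the same order.

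CHX20 (AT3G53720), a cation/proton exchanger of the endomembranes, lay below Ler on every array of both lines. On its own NILDOG1 did not pass against Ler (-0.20, limma adjusted p = 0.943). Its arrays gave 6.23, 6.13 and 6.16 in Ler, 4.81, 4.57 and 3.96 in dog1-1 and 5.89, 6.10 and 5.95 in NILDOG1. The highest NILDOG1 array fell just short of the lowest Ler array, while dog1-1 was 1.53 lower still. AT3G53960 and AT5G39520 had this order too, with dog1-1 below NILDOG1 by 1.05 and 0.99; the joint call of AT3G53960 was lost without Ler replicate 2 or 3.

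Function could be described only for loci with a name: 1535 of 13286 measured loci had one, and 29 of these were called, 18 higher and 11 lower. Groups were formed by words in gene names and synonyms, and each held few members. Of 28 cytochromes P450, oxidising enzymes of specialised metabolism, 2 rose and none fell. CYP71B6 went from 5.24 ± 0.11 in Ler to 6.18 ± 0.48 in dog1-1 and 6.80 ± 0.65 in NILDOG1, and CYP71B22 from 4.83 ± 0.38 to 5.44 ± 0.08 and 5.79 ± 0.49. Neither difference between the lines passed the test (-0.62, interval -1.25 to 0.01, and -0.35, interval -0.85 to 0.14). On its own dog1-1 passed against Ler for neither gene (limma adjusted p = 0.05025 for CYP71B6 and 0.108 for CYP71B22). NILDOG1 passed for CYP71B6 (adjusted p = 0.0337) but not for CYP71B22 (0.144). The call of CYP71B6 was lost without Ler replicate 2 or 3, and that of CYP71B22 without any of several single arrays. Of 63 proteases and peptidases, CP1 and scpl26 rose and CLPP4 fell. On its own NILDOG1 passed against Ler for CP1 and CLPP4 but not for scpl26 (0.21). The call of scpl26 was lost without Ler replicate 3.

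Among 21 transporters and carriers, GTR2, a glucosinolate transporter, had a joint difference of 0.68 and CHX20 one of -0.96. On its own NILDOG1 did not pass against Ler for GTR2 (0.38) or CHX20 (-0.20). COR47 was the 1 of 8 late embryogenesis abundant proteins and dehydrins that rose and LUL1 the 1 of 14 ubiquitin ligases. BGLU16, a beta glucosidase, was the 1 of 86 loci matched by name as glycosyltransferases or glycosyl hydrolases. Of these, NILDOG1 on its own passed against Ler for LUL1 but not for COR47 (0.13) or BGLU16 (0.38). No member was called among 78 transcription factor genes, 34 cell wall loosening genes, 20 glutathione transferases and thioredoxins, 8 methyltransferases, 6 kinases or 5 heat shock proteins and chaperones. Over all measured loci 178 of 13286 were called (1.34%), so groups of these sizes hold few or none at that share. The medians of the joint difference were 0.00 for P450 genes, -0.02 for proteases and -0.01 for transcription factors, beside -0.03 over all loci. Medians farther from that value occurred in small groups. They were 0.23 for kinases, 0.13 for late embryogenesis abundant proteins and dehydrins, and -0.06 for glutathione transferases and thioredoxins.

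Few regulators of dormancy could be read by name. EEL, BZIP53 and SPT were the 3 of 24 listed dormancy and maturation regulators that were measured, and none met the array rule. GID1A, GID1B, GID1C, which are gibberellin receptors, and SLY1, which targets gibberellin repressors for degradation, were the 4 of 20 gibberellin genes measured, also with none on 1 side of Ler in both lines. The median joint difference was 0.41 for the 3 regulators and -0.09 for the 4 gibberellin genes. None of 29 abscisic acid genes had a probe set under its name.

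Of 69 plastid loci measured, 3 were lower in both lines and called (4.35%, beside 1.34% of all loci in either direction). For petN, a small subunit of the cytochrome b6f complex of photosynthetic electron transport, the arrays read 5.88, 5.90 and 5.46 in Ler, 4.61, 4.45 and 4.23 in dog1-1 and 5.05, 5.04 and 5.07 in NILDOG1. The groups were separate and NILDOG1 lay between the others, 0.62 above dog1-1 (adjusted p = 0.00823). The other plastid genes, ndhJ and ndhF, encode subunits of the plastid NDH complex. They were lower too, but each met the array rule only by a gap of 0.011. On its own NILDOG1 passed against Ler for petN. It did not for ndhJ (-0.34, limma adjusted p = 0.835) or ndhF (-0.51, adjusted p = 0.561). The joint difference of ndhJ was -0.70; ndhF went from 3.15 in Ler to 2.64 in NILDOG1 and to background in dog1-1 (2.32), so the size of its fall is a lower limit. Of nuclear genes, CYTC6A, a cytochrome c6-like protein, was lower by 0.66 and LIL3:2, a light-harvesting-like protein, higher by 1.31. LIL3:2 measured 2.97 in Ler, 4.73 in dog1-1 and 3.83 in NILDOG1. On its own NILDOG1 did not pass against Ler for LIL3:2 or CYTC6A. All but petN in this paragraph were picked with their values in view, and their calls were not followed with single arrays left out.

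The remaining named loci, also picked with their values in view, had joint differences of -0.66 to 0.73. None was among the 48 genes whose calls were followed with single arrays left out. CML42, a calmodulin-like protein, rose in both lines, from 3.78 in Ler to 4.3 in dog1-1 and 4.72 in NILDOG1. RAB6A, a GTPase of vesicle traffic, rose by 0.69, TUB7, a beta tubulin, by 0.61 and TRM21 by 0.65. On the other side were IQD23, of the same family as IQD22, with -0.57, RL2 with -0.66 and CYB-1, a cytochrome b561, with -0.56. PTL, the PETAL LOSS transcription factor, had -0.46 and SBT3.5, a subtilase, -0.32. The call of SBT3.5 was near the threshold (limma adjusted p = 0.0463), and CYB-1 met the array rule only by a gap of 0.012. RBL and EPC1 rose by 0.52 and 0.49. Among the loci of this paragraph, NILDOG1 on its own passed against Ler only for CML42 and RL2. PTL, SBT3.5 and EPC1 were not matched by the word groups, which read symbols and synonyms only, so a group can miss members.

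**Figure D5:**
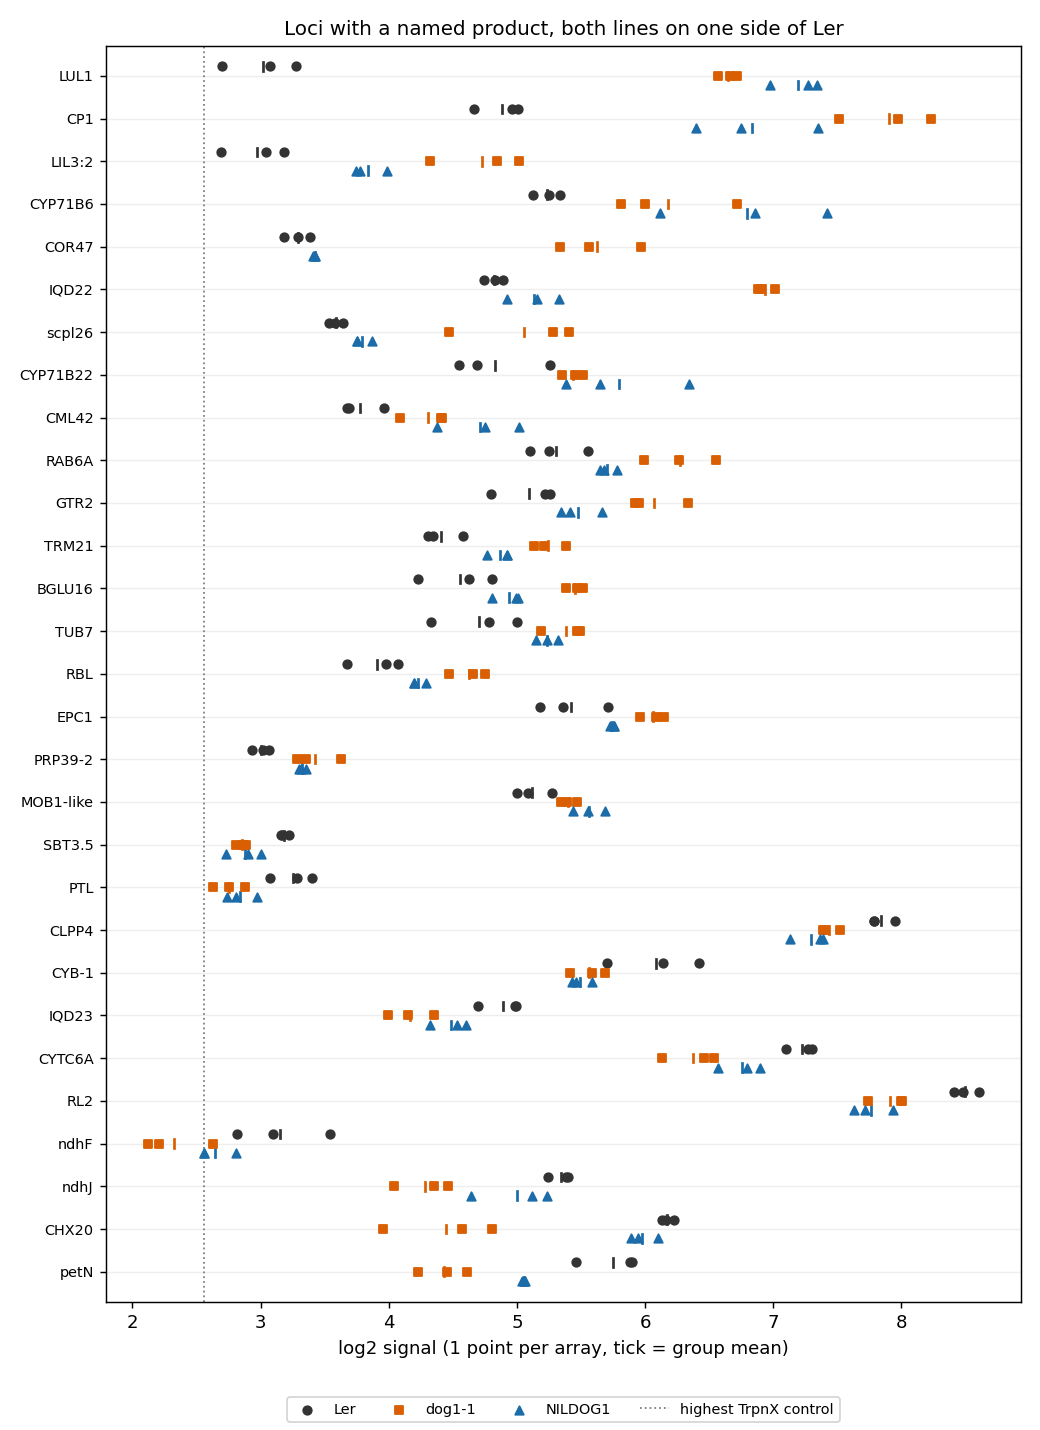
The log2 signal (horizontal axis) on each array for the 29 called loci that have a name, 1 point per array with a tick at each group mean and a dotted line at the highest TrpnX control (2.56), ordered by joint difference. LUL1 and CP1 rise most and petN falls most; COR47, IQD22 and CHX20 show NILDOG1 close to Ler and dog1-1 apart.

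Probe sets without a gene in the tables used here also held large changes, among them the largest fall of all. Probe set 250974_at rose from 3.83, 3.10 and 3.42 in Ler to 6.60, 6.18 and 6.44 in dog1-1 and 6.54, 6.44 and 6.36 in NILDOG1, with both lines overlapping each other. In the other direction 248932_at fell from 8.09 in Ler to 4.03 in dog1-1 and 6.43 in NILDOG1, with dog1-1 lower than NILDOG1 (difference -2.39).

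Other measures moved with the groups. The hybridization controls, which are spiked into each sample, averaged 9.19 to 9.57 on the Ler arrays, 8.81 to 9.14 on the dog1-1 arrays and 9.12 to 9.27 on the NILDOG1 arrays. When arrays were centred on these controls, the median of all probe sets rose by 0.24 in the lines relative to Ler, and 94.7% in place of 62.1% of the probe sets kept and called were higher than Ler. Directions of small changes are therefore relative to the deposited scaling. Around DOG1 the split was then 52 higher and 11 lower, with 30 of the 31 rises and 11 of the 27 falls still called. At the start of chromosome 5, 12 of 12 rises and 6 of 12 falls were still called. Elsewhere the split was 279 higher and 6 lower, with 49 of the 55 rises and 6 of the 41 falls still called. The share of higher calls of the joint difference went from 66.9% to 95%. No named gene changed direction, but 8 of the 48 no longer met the array rule and 5 lost the call (AT5G45410, AT5G46920, CLPP4, AT3G53960 and AT5G46160). With the arrays quantile normalized again, 4 no longer met the rule and 3 lost the call. The 25S rRNA control varied within groups. It read 7.33 on Ler replicate 1 and 8.04 on dog1-1 replicate 3, beside 9.86 to 11.88 on the other arrays. Without Ler replicate 1, 4 of the 48 named genes lost the call, and without dog1-1 replicate 3, 3 did. The part of the control levels in the result was not tested.

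Markers of seed parts were few. The 4 of 23 green tissue markers measured (RCA, LHCB4.1, LHCB4.2 and LHCB4.3) had mean signals of 5.71 to 5.87 in Ler, 6.35 to 6.45 in dog1-1 and 5.68 to 5.98 in NILDOG1. The dry seed markers M17 and PAP85 (2 of 14) averaged 12.48 to 12.57, 11.58 to 11.86 and 12.43 to 12.75. Both lists set dog1-1 apart and left NILDOG1 overlapping Ler, and none of their members met the array rule. BAN and DFR of the seed coat (2 of 11) and IKU2 and AGL62 of the endosperm (2 of 8) averaged between 2.63 and 3.27 in every array; of these IKU2 met the array rule, with a joint difference of -0.32, and none was called. Their part in the result was not tested, and in whole seeds fewer cells of a type and less RNA per cell cannot be told apart.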

How the data were processed

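Dry seed RNA of 9 bulks was labelled with biotin by a one-cycle kit per the labels' protocols and hybridised to Affymetrix arrays. The deposited table gives a log2 signal for each probe set on each array. Per the submitters' processing notes, the authors used RMA to normalize it; which version is not given in the sources used here. Base 2 was read from the range of the values. The 64 Affymetrix controls of 22810 probe sets were left out. RMA equalises the arrays, so differences are relative to the bulk of probe sets, and a signal depends on transcript amount and on how well the transcript matches the probes, which cannot be told apart here.

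Probe sets were named through the platform annotation: 13513 list 1 gene, 503 several and 8730 are not listed; 13436 matched 1 locus of the RefSeq gene table (13286 loci, 144 with more than 1 probe set, represented by the brightest). No coordinates are printed, since the build of the array annotation is not named. Position is the order of measured loci. The gene table has no product descriptions, so groups were matched by words in symbols and synonyms.

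In R 4.3.3 with limma 3.58.1 (lmFit, eBayes) a single model of the 9 arrays, with no term besides genotype, gave the joint contrast (weight 0.5 for each line), each line against Ler and dog1-1 against NILDOG1, with 6 residual degrees of freedom and Benjamini-Hochberg adjustment over all 22746 probe sets. The script was tested on simulated data. The labels call the replicates biological. Samples sharing a replicate number did not deviate together (0 of 9 correlations over 0.1), so numbers were not used to pair arrays. Between arrays of different numbers the correlations ran from -0.15 to 0.28, the highest for Ler 2 with NILDOG1 1. Whether arrays shared a growth block under another numbering was not tested. A group mean within the TrpnX range counts as background. The number of arrays limits the precision.

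The members, windows, lists and rules were chosen with earlier results of these data known. Among kept and called probe sets with 1 gene, named genes were the 12 largest rises and falls, the 8 largest of each outside both windows, the 5 nearest DOG1 on either side, the 5 largest line differences each way and up to 2 per direction of each list (48 genes). Alternatives were each array left out, other scalings, filters and priors, array weights, a replicate block, and stricter calls.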

Additional observations from a re-analysis of the deposited data

Results flagged for a closer look

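For 22 of the 48 named genes the effect against Ler differed between the lines, by the limma test of dog1-1 against NILDOG1, beside 12.5% of all probe sets. For 10 of the 22 a large line difference was itself the reason for naming them, so the count is no measure of how often lines differ. Values are dog1-1 minus NILDOG1 in log2. Among genes above Ler in both lines, dog1-1 was higher for COR47 (2.2), IQD22 (1.80), AT2G39920 (1.63), AT1G42705 (1.33), scpl26 (1.26), AT5G43150 (1.11), CP1 (1.07), AT5G39850 (0.75), GTR2 (0.59) and BGLU16 (0.52). NILDOG1 was the higher line for AT5G45540 (-2.55), AT5G42830 (-0.66) and LUL1 (-0.55). Among genes below Ler, dog1-1 was the lower line for CHX20 (-1.53), AT5G38780 (-1.07), AT3G53960 (-1.05), AT5G39520 (-0.99), AT5G39730 (-0.74), AT5G47400 (-0.62), petN (-0.62) and AT5G01750 (-0.54). AT5G46160 (0.69) was lower in NILDOG1. The 4 genes with NILDOG1 farther from Ler all lie in the 2 chromosome 5 windows.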

How the results depend on the processing

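With arrays centred on the hybridization controls, 2343 probe sets were called jointly, 2116 met the array rule, 748 met both, 241 of these differed between lines, and 285 loci lay elsewhere, with 63 around DOG1 and 25 at the start of chromosome 5. Requiring both lines to pass alone left 98 joint calls, 98 kept probe sets, and 29, 12 and 16 loci. A mean of at least 4 left 476 probe sets under the array rule, and the narrower window around DOG1 left 21 loci. Leaving out 1 array gave 700 (without Ler 3) to 1461 joint calls, 991 to 2255 under the array rule (which has fewer arrays to satisfy), 88 to 190 differing between lines and 73 to 153 loci elsewhere. The highest values of the last 2 were without NILDOG1 3; without Ler 1, 182 differed between lines. The fit with the replicate block gave 979 joint calls, 304 kept probe sets and 50, 23 and 82 loci by region. No named gene reversed in any setting. PRP39-2, MOB1-like, AT5G47050 and CYP71B22 most often lost the call; without Ler 3, 10 of 48 did. Causes were not tested. Probe sets near the TrpnX controls have no measurable fall.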
